A study of Mus musculus with 14 samples.

Results

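Dominant negative (DN) Trpm4 in Th1 cells is the retroviral experiment on Th1 cells of a mouse T helper cell study, and it holds 4 of the 14 arrays. These are Th1 cells with a control vector and Th1 cells with a vector carrying DN Trpm4, each after 4 h and after 12 h of stimulation, chosen by their titles and paired by time. All 4 cultures were T cells polarised to Th1 for 2 weeks, per the labels. The control arrays are titled vector, so the control cells were taken to carry a retrovirus too. The stimulus, the mouse strain, the promoter of the vector, the DN construct and the share of transduced cells are not given in the sources used here. The series asked how gene profiles change when the channel Trpm4 is inhibited in Th1 or Th2 cells, by siRNA or by this retrovirus.

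Trpm4 is a cation channel of the plasma membrane that opens when intracellular calcium rises and lets sodium in, which depolarises the cell. Depolarisation lowers the driving force for calcium entry through the store-operated Orai channels that the calcium sensor Stim1 opens. In T helper cells the calcium signal activates calcineurin and NFAT, which turn on cytokine genes.

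Each condition had 1 array, so the pair at 4 h and the pair at 12 h stood in for replicates, and a difference between the times counts as spread. Summed deposited signals were 8103000 to 8591000 and array medians 24.61 to 26.69. The Gapdh control probe sets at the 3′ end exceeded those at the 5′ end by 5.60 and 5.72 on the log2 scale in the vector and DN arrays at 4 h, and by -0.08 and -0.01 at 12 h. The bias to the 3′ end was thus alike within a pair, and it cannot be told apart from time between the pairs. All 10 T cell markers on the array exceeded the array median on all 4 arrays, with Cd3e at log2 signals of 9.94 to 10.63, Cd4 at 7.27 to 8.31 and the Th1 factor Tbx21 at 9.78 to 11.01. The Th2 cytokines Il4 and Il5, the regulatory T cell factor Foxp3, the macrophage gene Lyz2, the fibroblast gene Col1a1 and the CD8 T cell gene Cd8b1 lay below the median on all 4 arrays. Other Th2 genes did not, as Gata3 (7.89 to 8.15) and Il13 (7.52 to 8.76) exceeded it on all 4. So did 17 of 26 Th2-associated genes on the array, beside 25 of 26 Th1-associated genes. The CD8 T cell gene Cd8a also exceeded the median on all 4, at 5.83 to 7.06 on its brightest probe set. Of the markers of other cells, 1 of 10 for B cells, 6 of 19 for macrophages and dendritic cells, 7 of 12 for CD8 T and natural killer cells, 4 of 8 for Treg and Th17 cells, 1 of 16 for fibroblasts and 0 of 6 for erythroid cells exceeded it on all 4. Summed signals of the T cell markers were 16470 with vector and 16150 with DN Trpm4 at 4 h and 18120 and 17700 at 12 h, and those of the CD8 T and natural killer list 15660 and 16020 and then 14190 and 14330. In such bulk samples fewer cells of a type and less RNA per cell cannot be told apart.

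Signals are given as log2 of the normalised signal plus 16, on which the floor is 4.0 and the array median 5.39, and ratios are differences of these values, DN Trpm4 minus vector. This scale understates changes of dim probe sets. In limma's test of the DN effect with time as a block, 0 of 24236 probe sets (0%) passed an adjusted p of 0.05, and 1052 (4.34%) had an unadjusted p below 0.05. The smallest adjusted p was 0.9995 in that limma fit, so every value below is a difference that did not pass unless another fit is named. The fit had 1 residual degree of freedom beside 7.51 from limma's prior, which pools the variance over the probe sets tested. Each standard error (SE) given is moderated in this way and is not the plain spread of 2 pairs. Its median in this fit was 0.108.

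Trpm4, the targeted gene, had 1 probe set. At 4 h its log2 signal was 6.35 in vector cells and 6.95 in DN cells, and at 12 h 6.62 and 9.21. The deposited signals were 70.54 and 119.15 at 4 h and 75.31 and 515.59 at 12 h. Both DN arrays lay above both vector arrays, with the 12 h DN array far above the rest. The ratios were 0.60 at 4 h and 2.59 at 12 h, a mean of 1.59 ± 0.36 (moderated SE, 2 pairs, limma adjusted p = 0.9995). A fit to either Th1 pair alone has no spread between Th1 pairs, so its residual spread comes from the Th2 pairs. For the single pairs only the ratios, 2.59 at 12 h and 0.60 at 4 h, are therefore given. Over the alternatives of scale and pseudocount the adjusted p of limma ran from 0.0251 to 0.9999, and with a variance trend it was 0.00663.

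Among the other Th1 arrays Trpm4 stood at 6.90 in untreated cells, 6.95 with Thy1 siRNA, the control siRNA, and 6.23 with Trpm4 siRNA. The DN array at 4 h was at the level of the untreated and Thy1 siRNA arrays, and both vector arrays lay between those and the Trpm4 siRNA array. The untreated and Thy1 siRNA arrays lacked the bias to the 3′ end of the arrays at 4 h, with Gapdh differences of -0.25 and 0.04, and its part in these levels was not tested. In Th2 cells the log2 signals were 6.90 with vector and 7.0 with DN Trpm4 at 4 h, and 7.27 and 7.06 at 12 h. The Th2 ratios of 0.09 and -0.21 were smaller in size than those in Th1, and the difference of the DN effect, Th1 minus Th2, was 1.65 ± 0.53 (limma adjusted p = 0.9998). The Th2 arrays at 12 h carried the bias to the 3′ end (Gapdh differences of 5.22 with vector and 5.48 with DN Trpm4), which the Th1 arrays at 12 h lacked. In every comparison of the Th1 and Th2 pairs at 12 h, here and below, this bias cannot be told apart from cell type. Whether the probe set detects the transcript of the DN construct as well as the gene's own is not known from the files, so its level does not show whether the channel was blocked.

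**Figure D1:**
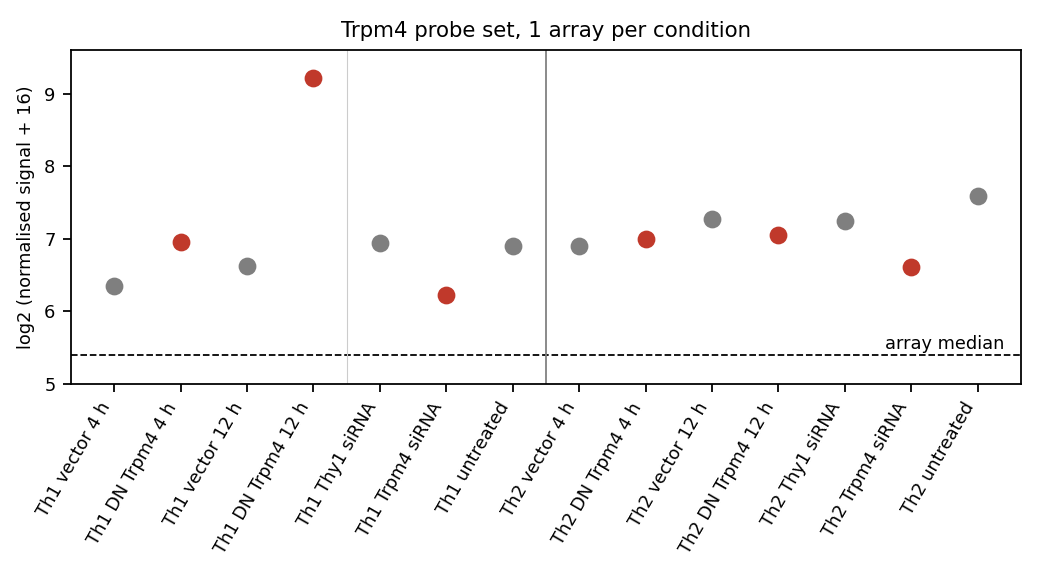
Log2 normalised signal plus 16 of the Trpm4 probe set on each of the 14 arrays, 1 point per array. Red points are arrays with DN Trpm4 or Trpm4 siRNA, grey points are controls, and the dashed line is the array median of 5.39. The Th1 DN array at 12 h is at 9.21, above the other 13 arrays.

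The rest of the transcriptome differed little, and the differences at 4 h did not recur at 12 h. Arrays of a pair correlated at 0.9958 at 4 h and 0.9934 at 12 h over the 19026 probe sets that exceeded the array median on all 4 arrays. Across these probe sets the ratios had an SD of 0.147 at 4 h and 0.183 at 12 h, and the ratios of both times correlated at r = -0.03 (Spearman -0.03). These are descriptions across probe sets, which share libraries and are not independent. At 4 h, 7 probe sets were over 1.5-fold higher and 16 lower with DN Trpm4 (0.121% in all). At 12 h, 119 were over 1.5-fold higher and 42 lower (0.846% in all).

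Past 1.5-fold in the same direction at both times, 1 of 19026 probe sets was higher (0.00526%), that of Trpm4, and 0 were lower (0%). Past 1.25-fold, a limit chosen after seeing the data, 14 were higher at both times (0.0736%), 14 lower (0.0736%) and 39 (0.205%) moved in opposite directions. Regardless of size, 4433 probe sets were higher at both times, 4923 lower at both times and 9613 opposite. Sign agreement between the times was thus no more frequent than disagreement.

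**Figure D2:**
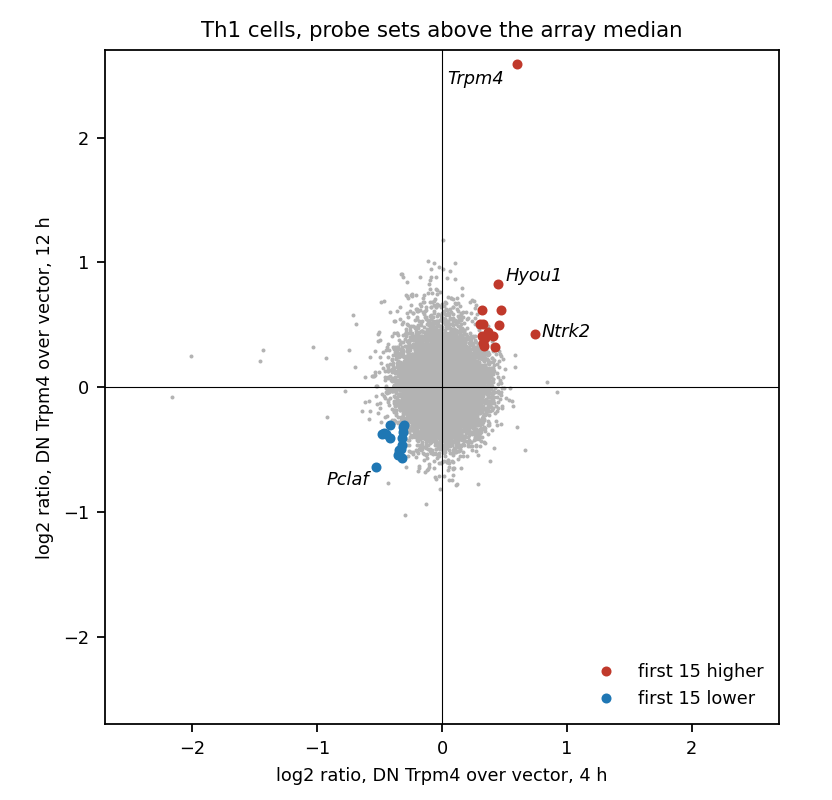
Log2 ratio of DN Trpm4 over vector in Th1 cells at 4 h (x axis) and 12 h (y axis), 1 point per probe set, for the 19026 above the median on all 4 arrays. Red and blue points are the first 15 genes higher and lower at both times, ranked by the smaller of both ratios. The cloud has no slope (r = -0.03), and Trpm4 stands apart at 0.60 and 2.59.

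The 30 genes named next are the first 15 in each direction by the smaller of both ratios, so that they agree in direction is how they were chosen. After Trpm4, the higher genes were led by Marcks, an actin-binding protein of the inner membrane face that protein kinase C phosphorylates. At 4 h its log2 signal was 6.85 in vector cells and 7.32 in DN cells, and at 12 h 6.28 and 6.89. Both DN arrays lay just above both vector arrays, and the mean ratio was 0.54 ± 0.11 (moderated SE, 2 pairs, limma adjusted p = 0.9995). The other 4 Marcks probe sets above the median on all 4 arrays were also higher at both times. Another, above the median on 3 arrays, was lower at both (-0.116 and -0.23).

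Hyou1, an endoplasmic reticulum chaperone, had log2 signals of 9.35 and 9.80 at 4 h and 10.76 and 11.59 at 12 h, vector first. The DN array was higher within each pair, while the groups overlapped across times. Its mean ratio of 0.64 ± 0.12 did not pass (limma adjusted p = 0.9995), but it passed with a pseudocount of 64 (0.62, limma adjusted p = 0.0116) and with a variance trend (limma adjusted p = 0.00196). Its other probe sets had ratios of -0.13 and 0.96 in one case and 0.00 and 0.11 in the other, so the 4 h difference was not shared. Other endoplasmic reticulum chaperones differed less, with Hspa5 at 0.04 and -0.12 and Hsp90b1 at 0.10 and 0.09.

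Tpbg, a membrane glycoprotein that modulates Wnt signalling, had log2 signals of 6.23 with vector and 6.69 with DN Trpm4 at 4 h and of 5.66 and 6.16 at 12 h. Its pairs agreed, its groups overlapped across times, and its Th2 ratios of -0.47 and -0.34 ran the other way (difference 0.88 ± 0.19 between cell types, limma adjusted p = 0.9998). Ntrk2, the receptor for the neurotrophin BDNF, had log2 signals of 5.46 and 6.20 at 4 h and 6.49 and 6.92 at 12 h. All 7 of its other probe sets lay below the array median on all 4 arrays, so its higher signal rests on 1 probe set. Copa, a coat subunit of Golgi transport vesicles, stood at 7.27 and 7.67 at 4 h and 7.19 and 7.60 at 12 h, with no overlap of the groups. Its other probe set had ratios of -0.06 and -0.04.

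For the remaining 9 higher genes the smaller of both ratios was 0.31 to 0.37. Tnfrsf11b, the secreted decoy receptor osteoprotegerin, had ratios of 0.32 and 0.62. Xaf1, an interferon-induced antagonist of apoptosis inhibitors, had ratios of 0.33 and 0.35, and Bmp8a, a ligand of the TGF-beta family, 0.33 and 0.33. The cytoskeletal adaptor Obsl1 (0.37 and 0.44), the tubulin deglutamylase Agbl5 (0.34 and 0.39), the nuclear kinase Hipk2 (0.32 and 0.51), the phosphatase regulator Igbp1 (0.42 and 0.32), the zinc finger gene Zfp52 (0.32 and 0.41) and the kelch protein gene Klhdc10 (0.31 and 0.51) completed them. Of the other probe sets of Hipk2, 5 exceeded the median on all 4 arrays and none was higher at both times, and the same held for both such probe sets of Igbp1. Another such Agbl5 probe set had ratios of -0.402 and 0.408, and those of Klhdc10 had -0.223 and 0.089, and 0.076 and -0.433. That of Zfp52 was higher at both times (0.365 and 0.114), and those of Obsl1 were split.

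Among the lower genes, 6 have known roles in the dividing cell. Pclaf, a factor that binds the replication clamp PCNA, had log2 signals of 7.03 with the vector and 6.51 with DN Trpm4 at 4 h, and 6.92 and 6.28 at 12 h. Both DN arrays lay below both vector arrays, with a mean ratio of -0.58 ± 0.11 (moderated SE, 2 pairs, limma adjusted p = 0.9995). A second Pclaf probe set had ratios of only -0.08 and -0.06. Another, above the median on 3 arrays, had -0.225 and 0.262.

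Ccnb2, a cyclin of the mitotic kinase Cdk1, stood at 7.04 and 6.62 at 4 h and 6.92 and 6.51 at 12 h, vector first. Here too the groups did not overlap, and the mean ratio was -0.41 ± 0.11 (moderated SE, 2 pairs, limma adjusted p = 0.9995). Cdca8, the chromosomal passenger protein borealin, had log2 signals of 8.20 and 7.72 at 4 h and of 7.55 and 7.17 at 12 h. A second probe set gave like ratios of -0.47 and -0.37, while another, above the median on 3 arrays, had -0.495 and 0.019. Prc1, which bundles microtubules of the central spindle, stood at 6.49 and 6.02 at 4 h and 6.56 and 6.19 at 12 h. Ube2c, the ubiquitin-conjugating enzyme of the anaphase-promoting complex, stood at 6.28 and 5.93 at 4 h and at 8.51 and 8.01 at 12 h. Mki67, the proliferation marker, had log2 signals of 8.82 and 8.50 at 4 h and of 8.22 and 7.82 at 12 h. Prc1 did not overlap between groups, whereas Cdca8, Ube2c and Mki67 were lower within each pair and overlapped across times.

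The 9 other lower genes were of mixed function. Rhob, a small GTPase of the actin cytoskeleton and endosomes, stood at 6.49 and 6.04 at 4 h and 7.31 and 6.94 at 12 h. Rhobtb2 had ratios of -0.32 and -0.57, Cmss1 -0.35 and -0.54, Misp3 -0.33 and -0.50, and the zinc finger factor Zfp148 -0.32 and -0.46. The clathrin adaptor subunit Ap1m1 (-0.31 and -0.35), the phospholipid transfer protein Pltp (-0.42 and -0.30), the corepressor component Brms1 (-0.31 and -0.32) and the galectin Lgals12 (-0.31 and -0.30) followed. A second Brms1 probe set was higher at both times (0.13 and 0.06). The other Zfp148 probe sets above the median on all 4 arrays disagreed. They included ratios of 0.182 and 0.178 and of 0.031 and 0.095, higher at both times. Only 1 was lower at both (-0.092 and -0.06), and the rest were split. Another Cmss1 probe set had -0.097 and 0.009.

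**Figure D3:**
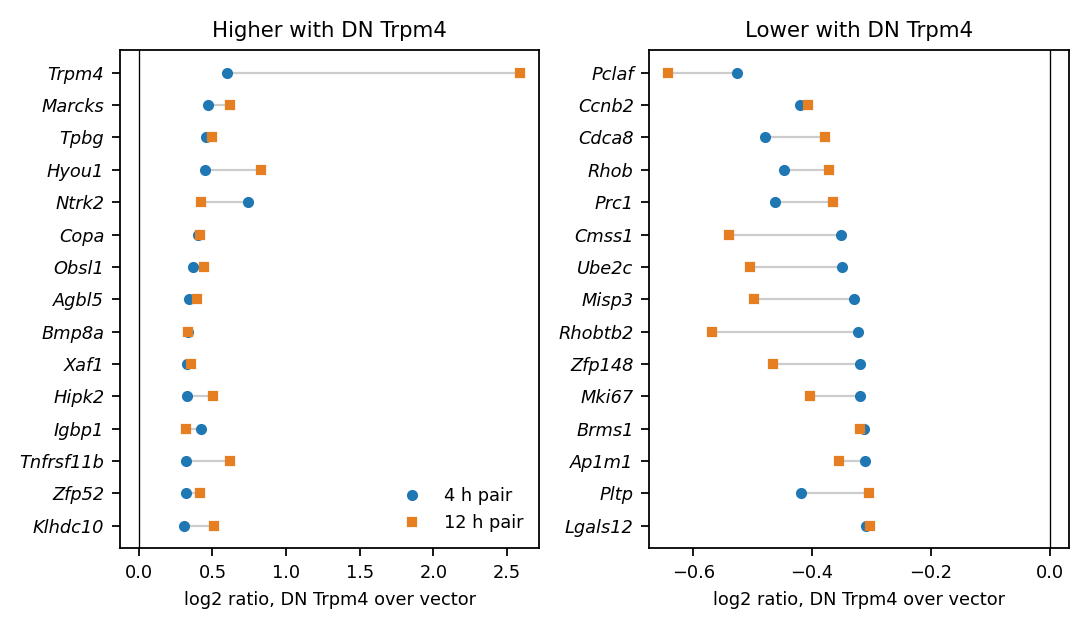
Log2 ratio of DN Trpm4 over vector in Th1 cells at 4 h (blue circles) and 12 h (orange squares) for the first 15 genes higher (left) and lower (right) at both times, 1 array per condition. Apart from Trpm4, the ratios run from 0.31 to 0.83 on the left and from -0.64 to -0.30 on the right. The panels have different x axes.

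Probe sets of one gene did not always agree. Of the 30 named genes, 18 had other probe sets above the median on all 4 arrays, 33 in all, and 15 of these 33 had the named direction at both times while 7 had the opposite one at both. In 9 of the 18 genes every other such probe set agreed. The named genes were also read in pairs that had no part in choosing them. Of the 15 higher genes, 9 were above 0 in the Th2 pair at 4 h, 8 in the Th2 pair at 12 h, 8 in the Th1 pair of Trpm4 siRNA over Thy1 siRNA and 11 in the Th2 pair of these siRNAs. Of the 15 lower genes, 8, 6, 8 and 6 were below 0 in the same pairs. Over all 9290 genes above the median on the 4 Th1 arrays, 48.73%, 52.51%, 48.39% and 50.98% were above 0 and 51.19%, 47.43%, 51.43% and 48.73% below it. The higher genes had their largest median outside the experiment in the Th2 siRNA pair, at 0.11, and these counts have no test. In the test of the difference between cell types 0 of 25913 probe sets (0%) passed limma's adjusted p, with 853 (3.29%) at an unadjusted p below 0.05.

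Cell cycle genes were the gene list with the highest share of members lower at both times among the lists tested with over 10 members. Of its 42 members tested out of 44, 26 were lower at both times, 3 higher and 12 opposite, beside 28.5% lower and 21.4% higher of all 10991 genes tested. The medians were -0.13 at 4 h and -0.08 at 12 h, against -0.01 at both times for all genes, and 0 members passed limma's adjusted p. The list was fixed with a cell cycle result of these arrays already known, so its direction is not independent evidence.

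The members were also split by textbook phase, after the values were seen, and the difference between phases has no test. Of 18 mitotic members tested, 15 were lower at both times and 0 higher, with medians of -0.17 at 4 h and -0.27 at 12 h. Of 19 S phase members, 9 were lower at both times and 1 higher, with 17 lower at 4 h and 10 at 12 h and medians of -0.12 and -0.01. The 5 G1 regulators were mixed, with 2 lower and 2 higher at both times. Past 1.25-fold at both times were 2 of the 18 listed mitotic genes, Ccnb2 and Ube2c, against 20 of all genes (0.182%). Cdca8 and Prc1, which also passed that limit, were not on the list.

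The mitotic kinase gene Cdk1 had log2 signals of 6.88 with the vector and 6.60 with DN Trpm4 at 4 h, and 9.49 and 9.22 at 12 h. Birc5, the passenger protein survivin, stood at 9.24 and 8.97 at 4 h and at 7.99 and 7.57 at 12 h. Cenpa, the histone variant of centromeres, stood at 7.71 and 7.44 at 4 h and 7.91 and 7.35 at 12 h. In each of these the DN array was the lower of its pair. The groups did not overlap for Cenpa and overlapped across times for Cdk1 and Birc5. The cyclin gene Ccna2 had ratios of -0.27 and -0.28, the kinase Aurka -0.18 and -0.36 and the topoisomerase Top2a -0.27 and -0.15. Plk1, another mitotic kinase, was lower at 12 h, with ratios of 0.02 and -0.48. In S phase the replication licensing gene Cdc6 had ratios of -0.28 and -0.24, the helicase subunit Mcm7 -0.33 and -0.07, and the helicase subunit Mcm4 was higher at 0.09 and 0.23. None of the 3 other Mcm7 probe sets above the median was lower at both times, and the other Mcm4 probe set had ratios of 0.04 and -0.22.

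The G1 inhibitor Cdkn1b, which blocks cyclin-dependent kinases, had log2 signals of 8.15 and 8.34 at 4 h and 6.32 and 6.79 at 12 h, vector first. It was the higher in each pair, although its other probe set had ratios of 0.20 and -0.05. Cdk4, the kinase that acts in G1, was lower with ratios of -0.19 and -0.21.

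The cell cycle genes were then set beside the pairs outside this experiment. In the Th1 siRNA pair, where Trpm4 siRNA was compared with Thy1 siRNA, 14 of the 18 mitotic members were lower, with a median of -0.10, and 16 of the 19 S phase members, with a median of -0.12, beside 51.0% of all genes. In the Th2 siRNA pair 4 of the 18 mitotic members were lower, with a median of 0.13, and 12 of the 19 S phase members, with a median of -0.01, beside 48.7% of all genes. In the Th2 DN pairs 6 and 5 of the 18 mitotic members were lower, with medians of 0.08 at 4 h and 0.11 at 12 h, beside 50.5% and 47.7% of all genes. Of the 19 S phase members 9 were lower at 4 h and 13 at 12 h in these Th2 pairs, with medians of 0.05 and -0.10. Each pair is 1 array a side, and the differences between pairs were not tested for the list. At 12 h the Th2 DN pair carried the bias to the 3′ end and the Th1 DN pair did not.

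**Figure D4:**
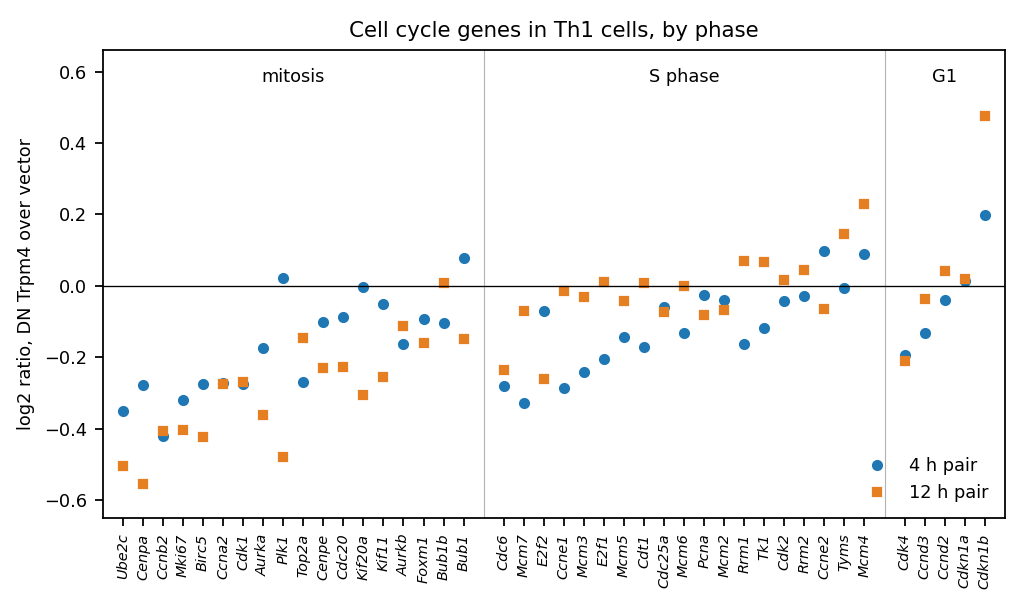
Log2 ratio of DN Trpm4 over vector in Th1 cells at 4 h (blue circles) and 12 h (orange squares) for 42 cell cycle genes, split into mitosis, S phase and G1 regulators. Each point is 1 pair of arrays. Of the 18 mitotic genes 15 lie below 0 at both times, and Cdkn1b lies highest at 12 h.

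Promoters of 4 of the lower named genes with roles in mitosis, of which Ccnb2 and Ube2c were on the list, are shown because these genes were lower together and because genes of late cell cycle phases are known to share a pair of elements near the start site. These are the cell cycle genes homology region (CHR), TTTGAA, and CCAAT boxes, searched on both strands. The sequences hold the 150 bases before the start site and 30 from it onward, from RefSeq on GRCm38.p6, with matches in capitals. A match on the other strand reads TTCAAA or ATTGG. The windows are chr9:70421525-70421704 on the minus strand for Ccnb2, chr4:124936888-124937067 on the minus strand for Cdca8, chr7:80294301-80294480 on the plus strand for Prc1 and chr2:164769779-164769958 on the plus strand for Ube2c.
Ccnb2: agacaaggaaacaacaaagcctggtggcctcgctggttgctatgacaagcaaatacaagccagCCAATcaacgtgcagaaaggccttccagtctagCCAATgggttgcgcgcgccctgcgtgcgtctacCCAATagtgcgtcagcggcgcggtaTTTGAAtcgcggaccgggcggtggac
Cdca8: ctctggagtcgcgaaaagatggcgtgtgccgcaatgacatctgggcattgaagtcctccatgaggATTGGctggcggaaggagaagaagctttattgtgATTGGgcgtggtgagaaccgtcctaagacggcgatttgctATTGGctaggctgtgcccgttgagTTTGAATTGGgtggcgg
Prc1: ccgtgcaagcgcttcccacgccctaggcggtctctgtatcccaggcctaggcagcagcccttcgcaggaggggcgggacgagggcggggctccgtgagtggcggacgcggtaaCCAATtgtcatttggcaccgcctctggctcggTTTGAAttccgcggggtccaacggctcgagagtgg
Ube2c: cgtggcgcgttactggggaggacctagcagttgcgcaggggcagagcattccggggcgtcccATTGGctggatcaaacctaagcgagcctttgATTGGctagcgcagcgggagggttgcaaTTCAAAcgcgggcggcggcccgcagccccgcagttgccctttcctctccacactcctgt
Each of the 4 windows held 1 TTTGAA. With the start site counted as position 1, it began at 5 in Ccnb2, 14 in Cdca8, -5 in Prc1 and -29 in Ube2c. In Cdca8 it overlapped a CCAAT box. CCAAT boxes numbered 3 in Ccnb2, 4 in Cdca8, 1 in Prc1 and 2 in Ube2c. A match describes the letters and does not show that a factor binds there.

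Of the mitotic genes, 14 of 18 had a window in the promoter table, and TTTGAA was in 8 of these 14 (57.1%) and a CCAAT box in 13 (92.9%). Of the S phase genes, 17 of 19 had one, with TTTGAA in 1 (5.88%) and CCAAT in 10 (58.8%). Of the 15 lower named genes, 11 had one, with TTTGAA in 5 (45.5%) and CCAAT in 7 (63.6%), and of the 15 higher ones 11 had one, with TTTGAA in 1 and CCAAT in 3. Over the first window of all 27025 genes the shares were 10.5% for TTTGAA and 27.7% for CCAAT. These include genes not tested here, so the background is unlike the sets, and enrichment was not tested. The lower named genes include the 4 shown above.

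Genes of calcium channels and of the calcineurin pathway were split in direction. Of 40 channel genes 22 were tested, of which 6 were higher at both times, Trpm4 among them, 8 lower and 8 opposite. Their medians were -0.04 and 0.00. Over all genes tested 21.4% were higher and 28.5% lower at both times. Orai1, the pore of the store-operated channel, had log2 signals of 8.60 and 8.46 at 4 h and 9.47 and 9.58 at 12 h, a lower and a higher DN array. A second Orai1 probe set had the opposite order, with ratios of 0.11 and -0.12. Its sensor Stim1 had ratios of 0.01 and 0.35 and Stim2 0.14 and 0.16, while Orai2 had -0.06 and -0.29 and Orai3 -0.29 and -0.11. The potassium channels that hold the membrane potential, Kcna3 and Kcnn4, had ratios of -0.04 and -0.01 and of 0.03 and -0.01. Trpm2, a relative of Trpm4 that conducts calcium, stood at 5.95 and 5.71 at 4 h and 5.88 and 5.53 at 12 h. Both DN arrays lay below both vector arrays for Trpm2, close to the array median.

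Of 50 genes of calcium pumps, sensors and calcineurin-NFAT, 38 were tested, with medians of -0.02 and -0.04. Of these 4 were higher at both times, 14 lower and 20 opposite, beside 21.4% higher and 28.5% lower of all genes. Nfatc1 and Nfatc2, the main NFAT factors of T helper cells, had ratios of 0.02 and -0.01 and of -0.01 and -0.06. Another Nfatc1 probe set above the median had -0.20 and 0.54, and another of Nfatc2 -0.18 and 0.29. The rest of their probe sets above the median had ratios from -0.099 to 0.086. Rcan1, an inhibitor of calcineurin and itself an NFAT target, had ratios of 0.03 and -0.34, and Ppp3r1, the regulatory subunit of calcineurin, 0.11 and 0.12. Mcu, the pore of the mitochondrial calcium uniporter, stood at 7.20 and 7.51 at 4 h and 6.63 and 6.88 at 12 h. The plasma membrane calcium pump Atp2b4 had ratios of -0.17 and -0.27.

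Cytokine genes were split in direction. Ifng, the defining Th1 cytokine, had log2 signals of 13.23 and 13.29 at 4 h and 13.41 on both arrays at 12 h, where equal ranks receive equal normalised values, so that quantile normalization itself limits differences at the top of the scale. Tnf had ratios of -0.02 and -0.19, and the growth factor Csf2 0.01 and 0.03. Il2, the T cell growth factor, stood at 11.06 and 11.18 at 4 h and 11.88 and 11.57 at 12 h, higher with DN Trpm4 at 4 h and lower at 12 h. Il21 was alike in direction, at 9.67 and 9.76 at 4 h and 6.88 and 6.22 at 12 h. Of 33 cytokine and chemokine genes tested, 6 were higher at both times, 11 lower and 13 opposite, with medians of 0.00 and -0.05. The shares of all genes were 21.4% higher and 28.5% lower at both times.

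Of the T cell activation and NFAT-induced genes more were lower at 12 h than at 4 h. Of 40 tested, 23 were lower at 4 h and 28 at 12 h, beside 53.4% and 53.5% of all genes. At both times 17 were lower, beside 28.5% of all genes. At 12 h the immediate early genes Egr1 (-0.45), Egr3 (-0.52), Fos (-0.53) and Nr4a1 (-0.47) were lower, with 4 h ratios of -0.01, 0.02, -0.05 and -0.03. They were picked for their 12 h ratios after these were seen. Nr4a2 was lower at both times (-0.17 and -0.36), as were 2 of its 5 other probe sets above the median, and Jun was higher at both (0.26 and 0.21).

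Among 26 Th1-associated genes 7 were higher at both times, 6 lower and 10 opposite, with medians of 0.03 and 0.00. For this list and the Th2 list, the shares of all genes were 21.4% higher and 28.5% lower at both times. Il12rb2, the Th1-restricted chain of the interleukin-12 receptor, stood at 5.99 and 6.26 at 4 h and 8.40 and 8.65 at 12 h. The Th1 factor Tbx21 had ratios of 0.07 and -0.06 and its partner Runx3 -0.25 and -0.12. Of 19 Th2-associated genes tested, 7 were higher at both times and 2 lower, with medians of 0.06 and 0.05. Il13, a Th2 cytokine, stood at 7.52 and 7.70 at 4 h and 8.30 and 8.76 at 12 h, and the Th2 factor Gata3 had ratios of 0.12 and 0.22. The DN array was the higher of each pair for both genes. In the Th2 DN pairs the same ratios were -0.26 and 0.02 for Il13 and -0.32 and 0.02 for Gata3.

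Of 24 cholesterol synthesis genes tested, 11 were lower at both times and 2 higher, with medians of -0.09 and -0.10. For each list in this paragraph the shares of all genes were 28.5% lower and 21.4% higher at both times. Fdft1, which makes squalene, had ratios of -0.17 and -0.23 (0.01 and -0.05 on its other probe set), and Cyp51, a later enzyme, -0.35 and -0.12. Of 23 interferon response genes tested, 9 were higher at both times, led by Xaf1, and 4 lower, with medians of 0.04 at both times. Of 50 migration, adhesion and actin genes, 8 were higher at both times, 13 lower and 28 opposite. Myh9, the heavy chain of nonmuscle myosin, stood at 11.05 and 11.26 at 4 h and 10.48 and 10.87 at 12 h, higher with DN Trpm4 in each pair. Of its 4 other probe sets above the median 3 were higher at both times and 1 had ratios of -0.26 and 0.40. Higher and lower at both times were 8 and 9 of 28 T cell receptor signalling genes, 5 and 9 of 25 apoptosis genes and 6 and 10 of 31 unfolded protein and heat shock genes. The same counts were 3 and 11 of 26 for glycolysis and hypoxia and 8 and 10 of 31 for ribosome biogenesis, and 0 members of any list passed limma's adjusted p. List members were read on their brightest probe set. Of 54 list members and single-time genes described here, 23 had other probe sets above the median on all 4 arrays, 40 in all, and 17 of these 40 had the same direction at each time as the probe set read.

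**Figure D5:**
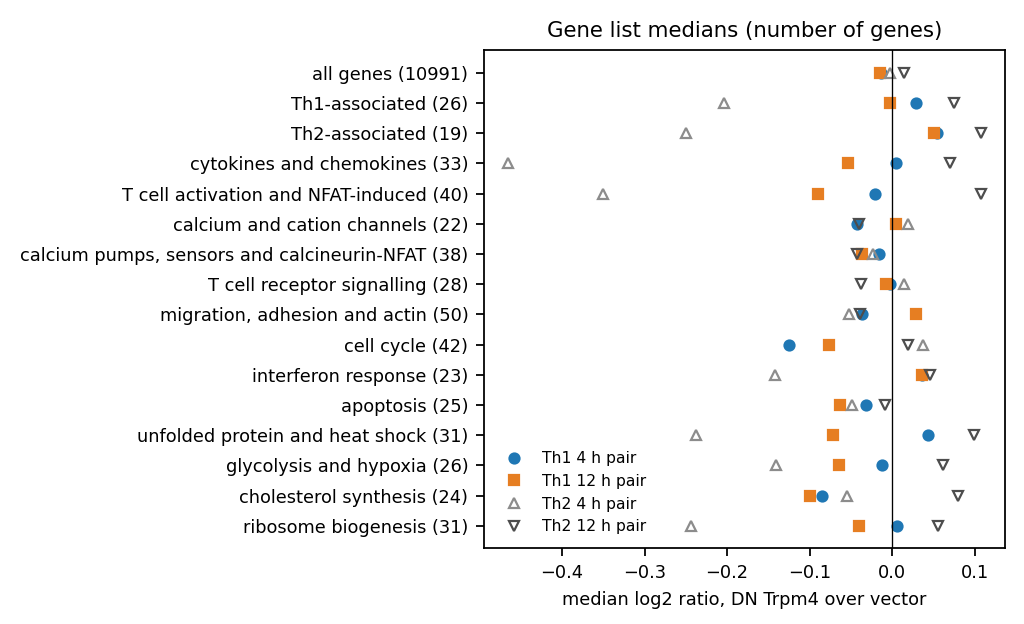
Median log2 ratio of DN Trpm4 over vector for all genes and 15 gene lists, with the number of genes tested in parentheses. Filled points are the Th1 pairs at 4 h and 12 h and open triangles the Th2 pairs. The Th1 medians lie between -0.13 and 0.06, with cell cycle genes lowest at 4 h and cholesterol synthesis genes lowest at 12 h, and the Th2 pair at 4 h spreads more widely.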

How the data were processed

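Trizol-extracted total RNA carried a biotin label and was read on Affymetrix arrays, as the labels state. Per the values of the deposited table, each probe set has a linear intensity. The authors' probe summary and array scaling are not given in the labels. Of 45101 probe sets, 34958 had 1 gene in the platform annotation, 932 several and 9211 none, and 34754 Entrez identifiers matched the gene table, which changed 0 symbols. The 64 control probe sets were not tested.

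Signals were quantile normalised over the 14 arrays, 16 was added and log2 taken. Probe sets above the array median on at least 2 of the 4 arrays (24236) entered limma 3.58.1 (R 4.3.3; lmFit, then eBayes), with time as a block. Tests were two-sided with Benjamini-Hochberg adjustment at 0.05. The difference from Th2 cells used the 8 retrovirus arrays, with each pair as a block. The samples are single arrays, so p-values rest on the spread between these pairs, moderated by limma toward the variance pooled over probe sets. They do not measure a spread between replicates of a condition. Low signal over background limits dim genes.

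Named genes had exactly 1 symbol, exceeded the median on all 4 arrays and agreed in direction at both times, ranked by the smaller ratio, 15 per direction with 1 probe set per gene. Trpm4, up to 4 members per list with the members that define it, and 5 genes in each direction that crossed the median were added. Other genes were chosen after their values were seen where the text says so. In gene lists each gene was read on its brightest probe set, by mean. The members and lists were chosen with earlier results of these data known. Alternatives covered normalization, pseudocounts of 1 and 64, filters, variance models, 1 probe set per gene, the time block, the arrays fitted and the fold limit.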

Additional observations from a re-analysis of the deposited data

How the results depend on the processing

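Each condition had 1 array, which left 1 residual degree of freedom. The DN effect in Th1 had 0 calls, and also 0 under the other normalizations, a pseudocount of 1, either filter, robust eBayes, 1 probe set per gene, no time block and all 8 arrays fitted together. It had 2 with a pseudocount of 64 (Hyou1 and Trpm4) and 3 with a variance trend (Hyou1, Trpm4 and a probe set with no gene name). With either Th1 pair left out, 1 array a side remains and the residual spread is that of the Th2 pairs, so calls are not given. The difference between cell types had 0 calls. Leaving out 1 of the 4 pairs leaves 1 array a side in that cell type, so calls are not given for it either. Probe sets higher at both times past 1.5-fold numbered 1, but 0 with a pseudocount of 64, a filter at the 75th percentile or a 2-fold limit, 5 with no filter, 14 at 1.25-fold and 4433 at any size. Those lower numbered 0, but 1 with a pseudocount of 1, 2 with no filter, 14 at 1.25-fold and 4923 at any size. Opposite ones numbered 0, but 2 with a pseudocount of 1, 10 with no filter, 39 at 1.25-fold and 9613 at any size. The cell cycle median of the mean ratio was -0.132, and -0.086 with a pseudocount of 64 or -0.072 with the mean over the probe sets of a gene. Of 150 values of the named genes over 5 settings, 0 reversed and 148 kept their side of the threshold. Of 132 list medians, 122 kept their sign. The quantile normalization over the 4 Th1 arrays could not be run for the difference between cell types, since it leaves out the Th2 arrays.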

Other observations

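Several genes differed at 1 time only, and they are given as values chosen for their size. At 4 h the lowest ratios were those of Klhdc3, a kelch protein gene, with log2 signals of 9.56 with vector and 7.40 with DN Trpm4, and of Ccdc90b, a mitochondrial coiled-coil gene, with 8.27 and 6.26. At 12 h the same genes stood at 7.89 and 7.81 and at 6.82 and 7.07. The vector array at 4 h was thus the high one among the 4 in both. The Klhdc3 difference rests on 1 probe set, as its others above the median had 4 h ratios of -0.13 and -0.06. The class I gene H2-Q10 showed the same order, with 8.46 and 7.02 at 4 h and 6.77 and 7.07 at 12 h. The highest ratio at 4 h was that of Slc20a2, a phosphate transporter, with 6.34 and 7.26 at 4 h and 6.47 and 6.44 at 12 h, and a 4 h ratio of 0.20 on its other probe set.

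At 12 h, after Trpm4, the highest ratio was that of Abraxas1, a subunit of a BRCA1 complex, with 6.47 with vector and 7.66 with DN Trpm4, against 5.84 and 5.85 at 4 h, while its other probe set had a 12 h ratio of -0.04. Notch2, the cell surface receptor, stood at 8.21 and 9.20 at 12 h and at 10.47 and 10.57 at 4 h. The DNA repair nuclease gene Ercc4 was lowest, with 6.73 and 5.70 at 12 h and 6.55 and 6.26 at 4 h, and its other probe sets had 12 h ratios of -0.24 and -0.18. One Cd8a probe set was higher with DN Trpm4 at 12 h (6.18 and 7.06), while the other 4 of that gene had ratios from -0.54 to 0.22. Near the array median, of the 34958 probe sets with 1 gene, 45 lay below it on both vector arrays and above it on both DN arrays, and 52 the reverse. They were picked for this order, and none passed limma's adjusted p. Ranked by the smaller ratio, the first 5 upward were Gm15743, Zfp597, Edrf1, Nacc2 and Tlr4. The first 5 downward were C130075A20Rik, Agk, Mtus1, Sucla2 and Plcd3. Tlr4, a receptor for bacterial lipopolysaccharide, stood at 5.05 and 5.43 at 4 h and 5.02 and 5.81 at 12 h. Agk, a mitochondrial lipid kinase, stood at 5.51 and 4.98 at 4 h and 5.88 and 5.34 at 12 h. Other probe sets of these genes were not compared.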
